A study of Homo sapiens with 24 samples.

Results

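The aldehyde dehydrogenase genes ALDH1A1, ALDH1A2, ALDH1A3, ALDH1B1, ALDH2, ALDH3A1, ALDH3A2, ALDH3B1, ALDH7A1 and ALDH9A1 were followed in A549 cells, a human lung adenocarcinoma line. They were chosen by gene symbol and are 10 of the 22026 genes in the deposited mRNA table. The cells were kept in medium conditioned by CAF, the usual abbreviation for cancer-associated fibroblasts, or served as control, and were collected at 3, 6, 12, 24, 48 and 72 h. The labels do not say what the control cells received. The table holds 1 polyA RNA library per condition and time, so 6 CAF medium libraries and 6 control libraries, as RPKM, a read count scaled by the length of the gene model and by library size. The series names 2 biological replicates for each sample, but they have no columns of their own, so the 6 times serve as the replicates and single times carry no test.

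Aldehyde dehydrogenases oxidise reactive aldehydes to carboxylic acids with NAD or NADP as the electron acceptor. ALDH1A1, ALDH1A2 and ALDH1A3 make retinoic acid from retinaldehyde, while the other members clear aldehydes that come from ethanol, membrane lipids, amino acids and choline compounds. In lung carcinoma, high ALDH activity, to which ALDH1A1 and ALDH1A3 contribute, is widely used to mark stem-like, drug-tolerant cells.

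The promoters of the 3 retinaldehyde dehydrogenases are shown because these genes stood at the top, near the bottom and at the very bottom of the levels described next. Each line gives the 250 bases upstream of the annotated start, written along the gene's own strand, from RefSeq on GRCh38.p14. ALDH1A1 is read from chr9:72953054-72953303 on the minus strand, ALDH1A2 from chr15:58065712-58065961 on the minus strand, the first of its 2 entries, and ALDH1A3 from chr15:100879581-100879830 on the plus strand. Capitals mark the motifs that were found on either strand. They are a CCAAT box (CCAAT), the core of a xenobiotic response element (GCGTG, or CACGC on the opposite strand) and a loose NF-kB pattern (GGGA, any 3 bases, then TCC). All are matches of letters, and binding was not tested.
ALDH1A1: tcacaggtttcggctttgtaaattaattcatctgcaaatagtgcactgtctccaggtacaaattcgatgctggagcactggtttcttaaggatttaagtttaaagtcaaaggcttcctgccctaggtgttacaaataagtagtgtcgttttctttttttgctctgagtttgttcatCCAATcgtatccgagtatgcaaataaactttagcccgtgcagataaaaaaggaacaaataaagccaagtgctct
ALDH1A2: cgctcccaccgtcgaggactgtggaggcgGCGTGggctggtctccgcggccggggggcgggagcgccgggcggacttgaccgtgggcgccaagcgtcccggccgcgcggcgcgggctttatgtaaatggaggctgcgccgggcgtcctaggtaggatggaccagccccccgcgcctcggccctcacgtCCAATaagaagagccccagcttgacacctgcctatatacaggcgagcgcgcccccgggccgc
ALDH1A3: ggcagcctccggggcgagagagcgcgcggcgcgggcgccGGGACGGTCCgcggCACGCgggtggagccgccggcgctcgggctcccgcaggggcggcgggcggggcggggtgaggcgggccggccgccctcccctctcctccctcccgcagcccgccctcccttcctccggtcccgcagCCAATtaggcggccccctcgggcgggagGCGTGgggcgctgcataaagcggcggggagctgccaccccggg

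The GC content was 38.4% for ALDH1A1, 72.8% for ALDH1A2 and 82.4% for ALDH1A3. Counted from the start, the CCAAT box began at -74 in ALDH1A1, -62 in ALDH1A2 and -71 in ALDH1A3. It was found in 5 of the 8 members with a promoter in the table, against 32% of all 35116 promoters of the same length. GCGTG was found in ALDH1A2 and ALDH1A3, 2 of 8 members, against 32.2% of all promoters. The loose NF-kB pattern was found in ALDH1A3 alone among the 8, at -211, against 4.31% of all promoters. A C/EBP pattern (TTGCNNAA) was found in ALDH7A1 alone, against 9.05%. No window of the 8 members held the TATA box (TATAAA, in 10.7% of all promoters) or the antioxidant response element core (TGACNNNGC, in 10.9%). None held the retinoic acid receptor motif (AGGTCA, in 12.1%) or an AP-1 site (TGANTCA, in 6.57%). The 8 promoters do not include those of ALDH2 and ALDH3A1.

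Depth, estimated from the size of the smallest steps in the values of short gene models, was 23.9 to 29.3 M reads at 3 to 12 h and 34.0 to 40.6 M reads at 24 to 72 h. Of 10 epithelial and lung markers, KRT8, KRT18 and KRT7 were abundant, with KRT8 between 1265 and 2357 RPKM, while KRT19 was 1.56 to 34.1 RPKM, CDH1 4.68 to 40.04 RPKM and EPCAM 0.24 to 6.46 RPKM. Among the lung lineage genes, NKX2-1, SFTPB and SFTPC reached at most 0.18 RPKM and ABCA3 was 4.92 to 8.91 RPKM. Among 10 fibroblast markers, 5 of which never passed 1 RPKM, the summed level at 3 to 12 h was 8.67 to 9.68 RPKM in CAF medium and 4.89 to 7.05 RPKM in control cells, and at 24 to 72 h it was 10.1 to 12.0 RPKM in CAF medium and 6.87 to 11.7 RPKM in control cells. COL1A2 reached at most 0.12 RPKM and COL3A1 at most 0.16 RPKM, while of 5 markers of blood cells and endothelium, PTPRC, PECAM1 and VWF reached at most 0.08 RPKM, CD14 was 0.25 to 2.2 RPKM and CD68 was 13.96 to 30.6 RPKM. In bulk RNA, fewer cells that express a gene and less of its RNA per cell cannot be told apart.

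ALDH1A1, the cytosolic retinaldehyde dehydrogenase, was by far the most abundant member, with a mean of 3858 ± 633 RPKM (SD, n = 12 libraries). Its rank among the 22026 genes was between 6 and 13 in the 12 libraries, and it took 0.736% to 1.25% of the summed RPKM of all genes and 90.5% to 94.2% of that of the 10 members. ALDH3A1, which oxidises aromatic and medium-chain aldehydes, came next at 93.1 ± 18.6 RPKM and was lower than ALDH1A1 in 12 of 12 libraries, by 41.4 times on average. ALDH2, the mitochondrial acetaldehyde dehydrogenase, averaged 79.4 ± 33.7 RPKM. ALDH3A1 was above ALDH2 in 7 of 12 libraries, so the order of these neighbours changed between libraries.

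ALDH3A2, the fatty aldehyde dehydrogenase of the endoplasmic reticulum, averaged 52.3 ± 12.2 RPKM, and ALDH7A1, which acts in lysine breakdown, 37.1 ± 3.8 RPKM (SD, n = 12 each). ALDH3B1, which oxidises lipid-derived aldehydes, averaged 24.9 ± 3.68 RPKM. ALDH9A1, which makes a precursor of carnitine, averaged 17.3 ± 2.9 RPKM, and ALDH1B1, another mitochondrial enzyme of acetaldehyde oxidation, 15.4 ± 3.19 RPKM. ALDH2, ALDH3A2, ALDH7A1 and ALDH3B1 were each above the next gene in this order in 12 of 12 libraries, whereas ALDH9A1 was above ALDH1B1 in 8 of 12. ALDH1A3 followed at 5.33 ± 1.75 RPKM and ALDH1A2 at 0.131 ± 0.0877 RPKM, each below the gene before it in 12 of 12 libraries. The most and the least abundant member are thus both retinaldehyde dehydrogenases.

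**Figure D1:**
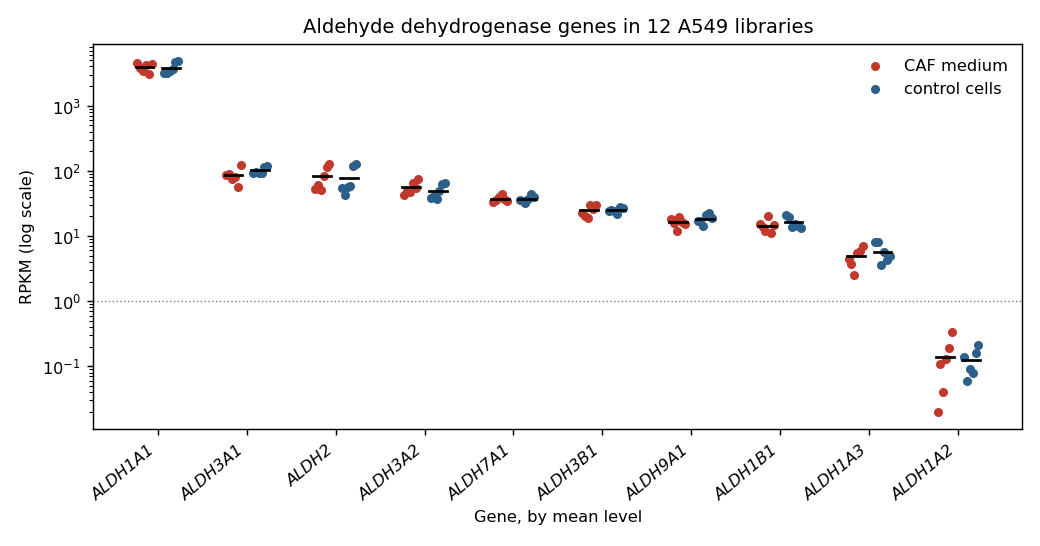
RPKM on a log axis for the 10 aldehyde dehydrogenase genes, ordered by mean level. Each dot is 1 library, ordered by time from left to right within a condition, with CAF medium left of control cells, bars mark the mean of 6 libraries and the dotted line marks 1 RPKM. ALDH1A1 lies at 3105 RPKM or more in every library and ALDH1A2 below 1 RPKM in every library.

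ALDH1A2 rested on about 2 to 54 reads per library and was left out of the limma tests, which were kept to genes that averaged 1 RPKM or more. In CAF medium it measured 0.02, 0.11, 0.04, 0.13, 0.19 and 0.34 RPKM from 3 to 72 h. In control cells it measured 0.14, 0.06, 0.09, 0.08, 0.16 and 0.21 RPKM at the same times. Both conditions had their highest value at 72 h, and their ranges overlapped. At this depth the exact Poisson 95% interval of the 72 h value was 0.257 to 0.447 RPKM in CAF medium and 0.146 to 0.297 RPKM in control cells, and such intervals cover counting error only.

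The first comparison asked whether CAF medium shifted the members over the whole course. None of the 9 members tested moved in 1 direction at all 6 times, against 16.8% of the genes tested, and the 6 libraries of each condition overlapped for all 9, against 0.357% of genes whose groups did not overlap. The limma test, which compared the libraries within each time on log2(RPKM + 0.5), called 0 of the 9 members tested at an adjusted p under 0.05, against 10.2% of the 12029 genes tested. At an unadjusted p under 0.05 the counts were 0 of 9 members and 3589 genes. An exact two-sided sign-flip test of the 6 paired differences gave a lowest p of 0.0625 among the 10 members, for ALDH3A1 and ALDH3A2, with 0.03125 the smallest that 6 pairs allow.

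ALDH3A2 was higher in CAF medium at 5 of 6 times. In CAF medium it measured 43.0, 49.3, 47.1, 64.8, 55.3 and 75.3 RPKM from 3 to 72 h. In control cells it measured 37.8, 41.4, 37.2, 49.2, 62.2 and 64.8 RPKM. The exception was 48 h, and the log2 difference over the 6 times was 0.20 ± 0.09 (SE, adjusted p = 0.179). At 3 to 12 h all CAF medium values were above all control values, with an early difference of 0.26 ± 0.14 (adjusted p = 0.265).

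ALDH3A1 lay lower in CAF medium at 5 of 6 times. It measured 86.4, 89.7, 75.6, 79.4, 56.6 and 121.9 RPKM in CAF medium. In control cells it measured 91.7, 96.1, 93.6, 93.4, 113.3 and 119.4 RPKM. The lowest of the 12 values was that of CAF medium at 48 h, and at 72 h the conditions were close. The log2 difference was -0.28 ± 0.13 over all times (adjusted p = 0.169), and its late value, for 24 to 72 h, was -0.40 ± 0.18 (adjusted p = 0.219).

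ALDH1A1 was high in both conditions and lay on either side of control. In CAF medium it measured 4476, 3732, 3375, 4251, 3105 and 4421 RPKM from 3 to 72 h. In control cells it measured 3147, 3181, 3426, 3701, 4717 and 4768 RPKM. CAF medium was above control at 3, 6 and 24 h and below it at 12, 48 and 72 h. The log2 difference over all times was 0.03 ± 0.13 with a 95% interval of -0.26 to 0.33 (adjusted p = 0.888), and it was 0.24 ± 0.18 at 3 to 12 h (adjusted p = 0.433) and -0.17 ± 0.18 at 24 to 72 h (adjusted p = 0.625).

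The other members differed less or less evenly. ALDH9A1 had 11.9, 16.1 and 19.6 RPKM as lowest, median and highest value in CAF medium and 14.4, 18.0 and 22.2 RPKM in control cells. It was lower in CAF medium at every time but 3 h, with a log2 difference of -0.18 ± 0.09 (adjusted p = 0.22). ALDH7A1 had 33.5, 35.9 and 43.6 RPKM in CAF medium and 31.99, 36.3 and 44.3 RPKM in control cells, and its difference was 0.00 ± 0.10 with an interval of -0.22 to 0.21. ALDH2 differed by 0.13 ± 0.11 (adjusted p = 0.464), with CAF medium about 0.51 higher on the log2 scale at 6 h and at 24 h and between -0.15 and 0.00 at the other times.

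**Figure D2:**
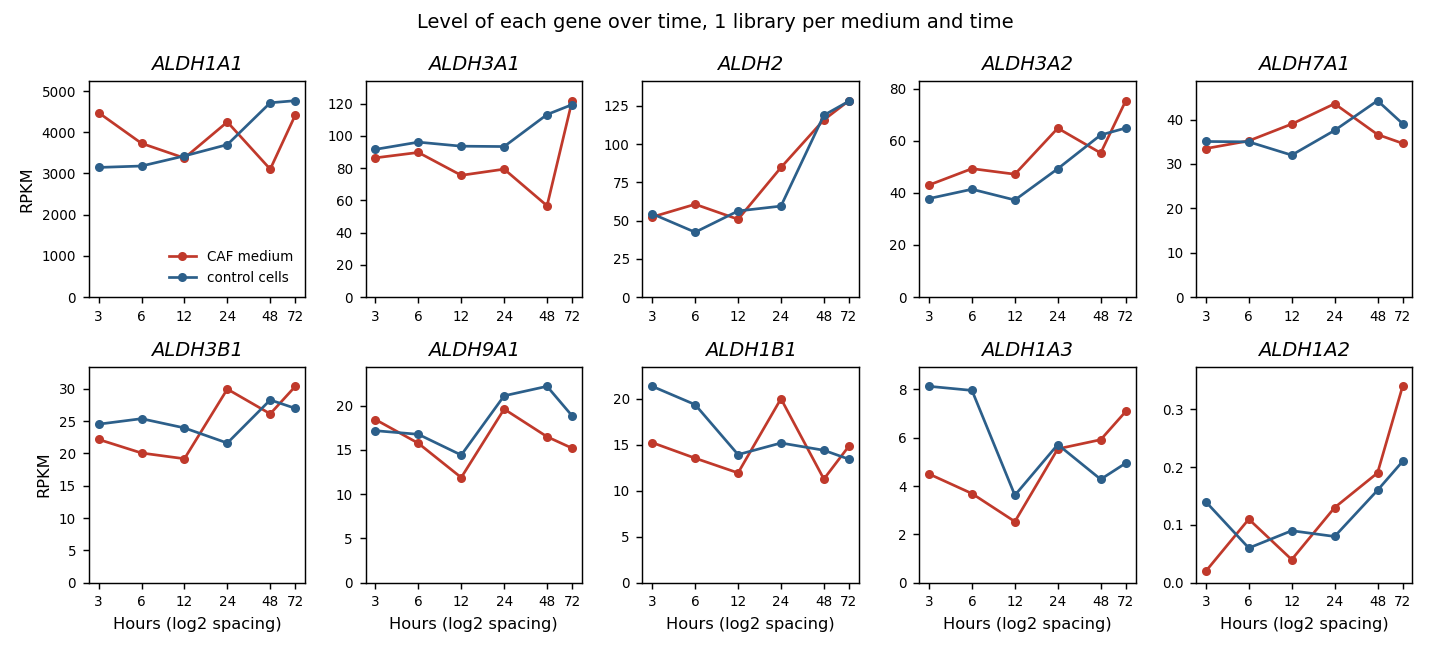
RPKM of each gene against hours in culture (axis spaced by log2 of the hours, 3 to 72 h), 1 point per library, CAF medium and control cells in separate colours. ALDH1A3 is lower in CAF medium at 3, 6 and 12 h and higher at 48 and 72 h, and ALDH2 is higher at 48 and 72 h than at 3 to 12 h in both conditions.

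The second comparison set the early times, 3 to 12 h, and the late times, 24 to 72 h, apart. ALDH1A3, a retinaldehyde dehydrogenase, fell in CAF medium at the early times and was the only member called there. In CAF medium it measured 4.5, 3.69, 2.53, 5.54, 5.92 and 7.09 RPKM from 3 to 72 h. In control cells it measured 8.13, 7.96, 3.62, 5.72, 4.28 and 4.95 RPKM. CAF medium was the lower at 3, 6, 12 and 24 h and the higher at 48 and 72 h. The highest early CAF medium value, 4.5 RPKM at 3 h, was above the lowest early control value, 3.62 RPKM at 12 h, so the early groups overlapped.

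These values rested on 241 to 1005 reads per library, and at 6 h the exact Poisson 95% intervals were 3.31 to 4.10 RPKM in CAF medium and 7.36 to 8.59 RPKM in control cells. The early log2 difference of ALDH1A3 was -0.75 ± 0.16 with a 95% interval of -1.09 to -0.40, or 0.595 of the control level (adjusted p = 0.0264, lower at 3 of 3 times). At the early times 1 of 9 members was called, against 5.63% of the 12029 genes, and 1.86% of genes were called lower. At 6 h alone ALDH1A3 was lower by more than 1 on the log2 scale, -1.01, as were 0.973% of the genes tested, and no member was higher by that size at 6 h, against 2.32% of genes.

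The call rested on all 3 early times. Its adjusted p was 0.0622 when the 3 h pair was dropped, 0.205 when that at 6 h was and 0.0826 when that at 12 h was, with log2 differences between -0.90 and -0.62. The count of all genes called also fell, to 5 without the 6 h pair and to 0 without the 12 h pair, against 677 with all pairs. COL1A1, a collagen gene on the fibroblast list, rose at 3 to 12 h by 1.11 ± 0.23 on the log2 scale (adjusted p = 0.0259), with 5.81, 4.02 and 4.84 RPKM in CAF medium and 1.91, 1.37 and 2.89 RPKM in control cells. FAP, the other fibroblast marker tested, had an early difference of -0.04 ± 0.16 (adjusted p = 0.909), and THY1, too low to be tested by limma, had 0.53, 0.57 and 0.92 RPKM in CAF medium and 0.14, 0.12 and 0.15 RPKM in control cells. COL1A2 and COL3A1 were at most 0.08 RPKM at these times, and the part of the fibroblast markers in the ALDH1A3 result was not tested. ALDH1A3 overlaps the gene ALDH1A3-AS1 in RefSeq, and whether the authors' counting used the strand of these directional libraries is not stated in the labels. Other genes also overlap ALDH1A2, ALDH2, ALDH3A2, ALDH3B1, ALDH7A1 and ALDH9A1 in RefSeq, and none overlaps ALDH1A1, ALDH1B1 or ALDH3A1.

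At 24 to 72 h, 0 of 9 members were called, against 4.09% of the genes, and at an unadjusted p under 0.05 the counts were 1 of 9 members, ALDH3A1, and 2561 genes. ALDH1A3 was higher in CAF medium at 48 and 72 h, and its late difference was 0.29 ± 0.16 (adjusted p = 0.324). The late minus early difference of ALDH1A3 was 1.04 ± 0.22 (adjusted p = 0.0772), against 0.416% of genes called and 0 of 9 members. At an unadjusted p under 0.05 this contrast had 2 of 9 members, ALDH1A3 and ALDH3B1, and 1388 genes. Without the 24 h pair the late minus early difference of ALDH1A3 reached 1.20 (adjusted p = 0.0272). This was the only 1 of 13 alternatives past the threshold, and the adjusted p ran up to 0.327.

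The 8 cell cycle markers, among them MKI67 and TOP2A, all fell in CAF medium at the late times, where their sum was 99.6 to 301 RPKM in CAF medium and 218 to 494 RPKM in control cells. At 3 to 12 h this sum was 432 to 472 RPKM in CAF medium and 382 to 463 RPKM in control cells. Its part in the late values of the members was not tested.

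ALDH1B1 and ALDH3B1 had the same order of signs as ALDH1A3 at the early times, without passing the test. ALDH1B1 measured 15.2, 13.5 and 11.9 RPKM in CAF medium at 3, 6 and 12 h, and 21.3, 19.4 and 13.9 RPKM in control cells. Its early difference was -0.40 ± 0.15 (adjusted p = 0.135), and the control value at 12 h was below the CAF medium value at 3 h. ALDH3B1 measured 22.2, 20.1 and 19.2 RPKM in CAF medium at these times, and 24.5, 25.4 and 24.0 RPKM in control cells. Its early groups did not overlap, yet its difference was -0.26 ± 0.14 (adjusted p = 0.258).

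Across the members, 5 of 9 moved 1 way at all 3 early times, against 44.2% of the genes tested, and 3 of 9 (ALDH3A1, ALDH3A2 and ALDH3B1) had early groups that did not overlap, against 27.5%. At the late times 1 of 9, ALDH9A1, moved 1 way at all 3 times, against 46.6%, and none had groups that did not overlap, against 10.9%. With 9 members, the early shares were near those of all genes. At 48 h, 1 of 9 members, ALDH1A3, was higher in CAF medium, against 43.7% of all genes tested.

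**Figure D3:**
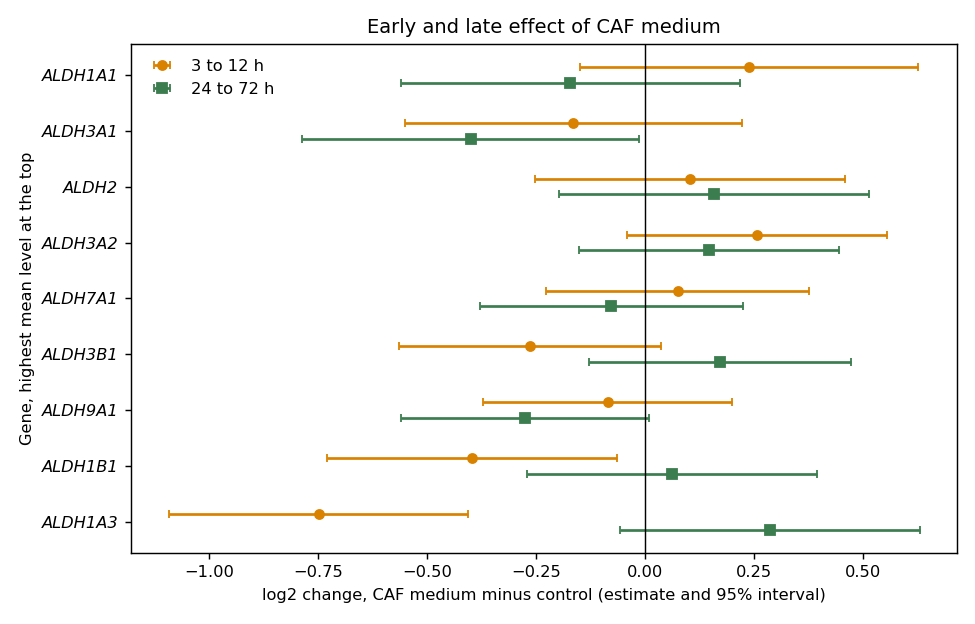
Log2 difference, CAF medium minus control cells, at 3 to 12 h and at 24 to 72 h for the 9 members tested, as estimate and 95% interval. The early interval of ALDH1A3 runs from -1.09 to -0.40, and its late interval from -0.06 to 0.63.

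**Figure D4:**
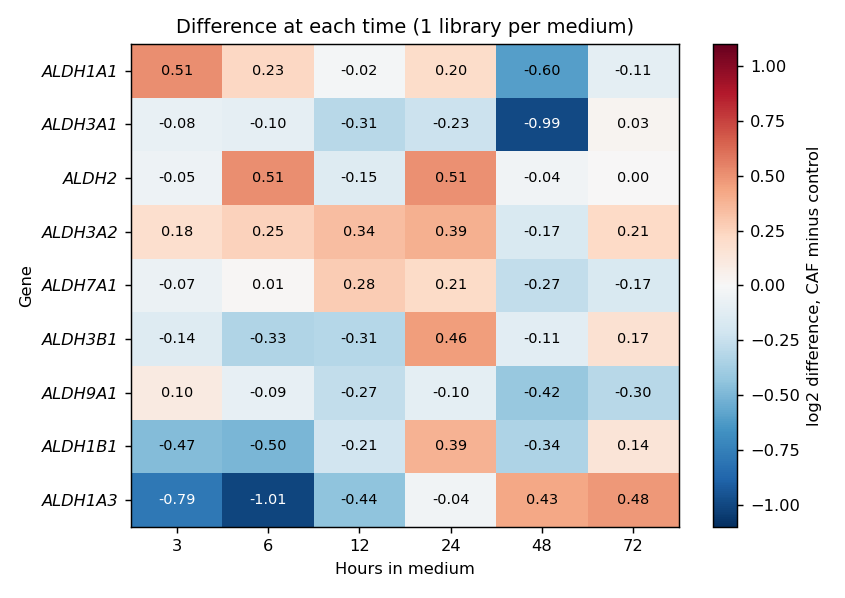
Log2 difference, CAF medium minus control cells, on log2(RPKM + 0.5) for each of the 9 genes tested (rows) at each of the 6 times (columns). The lowest cell is ALDH1A3 at 6 h, -1.01, followed by ALDH3A1 at 48 h, -0.99, and the column at 48 h is negative for 8 of the 9.

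The third comparison followed the members over time. ALDH2 and ALDH3A2 rose with time in culture, and the other 7 members tested were not called. In CAF medium ALDH2 measured 52.4, 60.7, 50.8, 84.7, 115.9 and 128.4 RPKM from 3 to 72 h. In control cells it measured 54.4, 42.4, 56.3, 59.5, 118.9 and 128.1 RPKM. Both conditions ended at nearly the same level. At 24 h the control library was above the 3 early control libraries but within the range of all early libraries, 42.4 to 60.7 RPKM. The CAF medium library at 24 h was above that range.

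The slope of ALDH2 on the log2 of the hours, fitted to the mean of both conditions at each time, was 0.31 ± 0.05 per doubling of the hours, or 1.24-fold (adjusted p = 0.00488). It was 0.30 ± 0.06 in CAF medium (adjusted p = 0.0126) and 0.32 ± 0.07 in control cells (adjusted p = 0.018). The slope of ALDH3A2, with the values given above, was 0.16 ± 0.04 per doubling, or 1.12-fold (adjusted p = 0.0135). It was 0.15 ± 0.05 in CAF medium (adjusted p = 0.101) and 0.18 ± 0.04 in control cells (adjusted p = 0.0212). Of the members 2 of 9 were called, against 24.7% of the genes tested, of which 15.1% rose and 9.62% fell.

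The rise of ALDH2 kept an adjusted p under 0.05 without each pair in turn, at most 0.0372, whereas that of ALDH3A2 was 0.14 without the 72 h pair (adjusted p = 0.115). Libraries at 24 to 72 h were also deeper than those at 3 to 12 h, all 8 cell cycle markers fell with time, and the part of these in the slopes was not tested. Differences in slope between the conditions were -0.02 ± 0.07 for ALDH2 (adjusted p = 0.932) and -0.03 ± 0.06 for ALDH3A2 (adjusted p = 0.854).

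Within the control libraries alone 4 of 9 members were called, and within the CAF medium libraries alone ALDH2 was the one called. In control cells ALDH1A1 rose by 0.15 ± 0.04 per doubling (adjusted p = 0.0359) and ALDH1B1 fell by 0.13 (SE 0.04, adjusted p = 0.0426), beside ALDH2 and ALDH3A2. Among all genes 14.4% rose and 5.95% fell in the control libraries, and 6.41% rose and 5.18% fell in the CAF medium libraries. In CAF medium the slope of ALDH1A1 was -0.02 ± 0.07 (adjusted p = 0.861) and that of ALDH1B1 -0.01 ± 0.07 (adjusted p = 0.951).

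The test of the difference in slope itself called 0 of 9 members, against 0.166% of the genes. At an unadjusted p under 0.05 the counts were 2 of 9 members, ALDH1A3 and ALDH1A1, and 1722 genes. ALDH1A3 came nearest, with 0.34 ± 0.06 (adjusted p = 0.0511), from a slope of 0.17 ± 0.08 in CAF medium and -0.16 ± 0.07 in control cells, neither called alone. ALDH1A1 had a difference in slope of -0.17 ± 0.06 (adjusted p = 0.261). For ALDH1A3 the difference had an adjusted p of 0.04 with a pseudocount of 1 and 0.0385 with each library centred on its median. These were the only 2 of 14 alternatives past the threshold, and the adjusted p ran up to 0.25. With each pair left out in turn it was 0.0587 to 0.202.

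**Figure D5:**
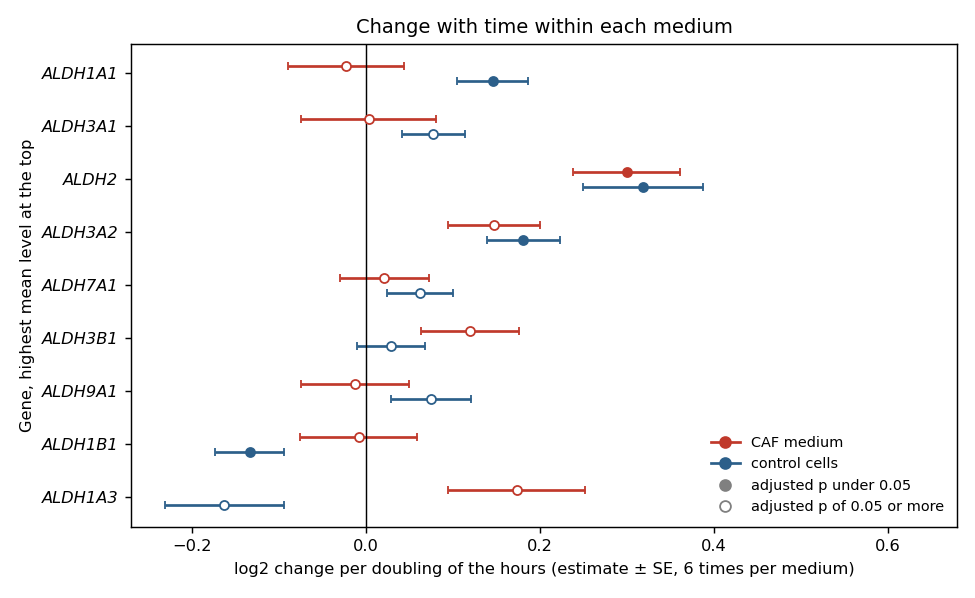
Change per doubling of the hours (log2, estimate ± SE, 6 times per condition) for the 9 members tested, CAF medium above control cells for each gene. Filled points have an adjusted p under 0.05, which in CAF medium is ALDH2 and in control cells are ALDH1A1, ALDH2, ALDH3A2 and ALDH1B1.

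Across the 12 libraries the members did not form 1 block. The highest Pearson r between members on the log2 scale was 0.87, for ALDH2 with ALDH3A2, both of which rose with time, and the lowest was -0.34, for ALDH1B1 with ALDH2. Among all other genes that averaged 1 RPKM or more, ALDH1A1 was most like SOX2-OT (r = 0.94), ADAM23 (0.93) and TRIM6 (0.89). ALDH3A1 was most like HYOU1 (0.86), ZNF223 (0.82) and PALMD (0.82). Genes most like ALDH2 included CNTN1 (0.97) and CCDC33 (0.97). These libraries share times and depths, and the coefficients are descriptions.

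The 9 other aldehyde dehydrogenase genes of the table were lower than most of the members. ALDH18A1, which makes a precursor of proline, was the highest at 11.6 to 27.9 RPKM, and ALDH1L1 and ALDH3B2, a near copy of ALDH3B1, reached at most 0.03 RPKM. Of the 6 tested, none was called for CAF medium over all times, early or late, against 10.2%, 5.63% and 4.09% of all genes. Their median log2 difference over all times was -0.04, against 0.00 for all genes. By the slope test 2 of the 6 rose and 1 fell, against 15.1% and 9.62% of all genes. With time ALDH6A1, which acts in valine breakdown, rose by 0.18 ± 0.05 per doubling (adjusted p = 0.0295), and ALDH1L2, the mitochondrial 10-formyltetrahydrofolate dehydrogenase, by 0.15 ± 0.05 (adjusted p = 0.0457). ALDH16A1 fell by 0.15 (SE 0.04, adjusted p = 0.0292). All 3 were named after their values were seen. Each lost its call without the 6, the 48 or the 72 h pair, with adjusted p of up to 0.18 for ALDH1L2. All 3 calls were also lost with no filter on low values. That of ALDH1L2 was lost as well under median centring (adjusted p = 0.0663) and quantile normalization (adjusted p = 0.105).

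Of 28 listed genes of retinoid handling, the pathway of the ALDH1A enzymes, 27 were in the mRNA table and 16 were tested. Over all times 1 of 16 rose and none fell, against 6.06% of all genes up and 4.13% down, and the median log2 difference was 0.04, against 0.00 for all genes. Early 1 of 16 rose, against 3.77% of all genes, and none was called late. CRABP2, which carries retinoic acid to its nuclear receptors, had 1.94, 1.14, 2.74, 4.28, 5.05 and 5.01 RPKM in CAF medium and 0.94, 0.97, 1.31, 1, 2.82 and 4.44 RPKM in control cells. It was higher in CAF medium at every time, by 0.72 on the log2 scale (adjusted p = 0.0341), a call kept without the 72 h pair and lost without any other (adjusted p up to 0.0969). RARG, a retinoic acid receptor, had 5.01, 4.74 and 5.83 RPKM in CAF medium at 3, 6 and 12 h and 2.31, 2.68 and 2.7 RPKM in control cells. Its early rise was 0.89 (adjusted p = 0.012), and the adjusted p reached 0.0843 without the 6 or the 12 h pair. With time 6 of the 16 rose and 1 fell, against 15.1% and 9.62% of all genes, with a median slope of 0.12 per doubling, against 0.02 for all genes.

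Among reductases and alcohol dehydrogenases, which take aldehydes in the other direction or produce them, 19 of 20 listed were in the mRNA table and 12 were tested. Over all times 2 of 12 rose and none fell, against 6.06% of all genes up and 4.13% down, with a median log2 difference of 0.03. AKR1C1, an aldo-keto reductase, had a mean of 30.2 RPKM in CAF medium and 19.8 RPKM in control cells and rose by 0.62 (adjusted p = 0.019). CBR4, a carbonyl reductase, averaged 13.98 RPKM in CAF medium and 10.9 RPKM in control cells and rose by 0.38 (adjusted p = 0.0394). AKR1C1 lost its call without the 6, 12 or 24 h pair (adjusted p up to 0.0672), and CBR4 without any pair other than that at 72 h (up to 0.129). AKR1C1 shares long stretches with AKR1C2 and AKR1C3, so its reads may be split among them. With time 3 of the 12 rose and 1 fell, against 15.1% and 9.62% of all genes, and none was called early or late.

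Genes of the pathway of NRF2, the oxidant-response factor, were all tested (20 of 20), and over all times 1 of 20 rose and 2 of 20 fell, against 6.06% of all genes up and 4.13% down. Their median log2 difference was -0.18, against 0.00 for all genes. OSGIN1, an oxidative stress gene, averaged 1.06 RPKM in CAF medium and 2.88 RPKM in control cells, lower by 0.92 (adjusted p = 0.022). From 3 to 72 h it measured 1.41, 1.16, 1.08, 1.16, 0.72 and 0.84 RPKM in CAF medium. In control cells it measured 6.58, 3.79, 2.19, 2.48, 1.21 and 1.02 RPKM. Its slope per doubling was -0.45 in control cells (limma, adjusted p = 0.00663) and -0.12 in CAF medium (adjusted p = 0.218), and the conditions were close at 72 h. SRXN1, the sulfiredoxin, averaged 25.6 RPKM in CAF medium and 37.1 RPKM in control cells and fell by 0.53 (adjusted p = 0.0208). TKT, the transketolase of the pentose phosphate pathway, averaged 375 RPKM in CAF medium and 259 RPKM in control cells and rose by 0.54 (adjusted p = 0.0202). Each of the 3 lost its call without the 6, 12 or 24 h pair, with adjusted p up to 0.077 for OSGIN1. OSGIN1 and SRXN1 were also called lower early, 2 of 20 against 1.86% of all genes. Each lost that call when the 6 or the 12 h pair was left out (adjusted p up to 0.238 for SRXN1). TKT was called higher late, 1 of 20 against 1.36% of all genes. With each pair left out in turn, the TKT call was kept only without the 3 h pair (adjusted p up to 0.227). It was also lost with either looser filter and without the mean-variance trend (adjusted p up to 0.154). It was kept with other pseudocounts, median centring and quantile normalization. With time 3 of 20 rose and 4 of 20 fell, against 15.1% and 9.62% of all genes.

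Of 9 listed genes of the pathway of the aryl hydrocarbon receptor, which induces ALDH3A1 in other cell types, 8 were in the mRNA table and 6 were tested. Over all times 1 of 6 was called lower and none higher, against 4.13% of all genes down and 6.06% up. Early 2 of 6 were called lower, against 1.86% of all genes, and late 0 of 6 were called, against 4.09%. CYP1B1, a cytochrome P450 induced by the receptor, had 13.3, 10.5 and 7.65 RPKM in CAF medium at 3, 6 and 12 h and 46.6, 29.4 and 16.2 RPKM in control cells. It fell early, by 1.42 (log2, adjusted p = 0.00929), with an adjusted p of up to 0.0524 without the 6 or the 12 h pair. TIPARP, which restrains the receptor, had 16.2, 17.6 and 7.38 RPKM in CAF medium and 30.7, 26.1 and 17.2 RPKM in control cells at these times, and fell by 0.88 (adjusted p = 0.0407, up to 0.212 without 1 early pair). Over all times CYP1B1 was also called lower, by -0.80 (adjusted p = 0.0442, kept without the 72 h pair alone and otherwise up to 0.135). For CYP1B1 the late minus early difference was 1.24 (adjusted p = 0.049, kept without the 24 h pair alone and otherwise up to 0.216). ALDH3A1 itself had an early difference of -0.16 ± 0.18 (adjusted p = 0.603).

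Of 12 genes used beside ALDH activity to mark stem-like lung carcinoma cells, 9 were in the mRNA table and 5 were tested. The 3 absent were SOX2, POU5F1 and CD24. None was called for CAF medium over all times, early or late, against 10.2%, 5.63% and 4.09% of all genes. By the slope test 1 of the 5 rose and none fell, against 15.1% and 9.62% of all genes. The gene that rose was CD44, a surface glycoprotein, between 75.6 and 208 RPKM over the 12 libraries. That call was lost without the 3 or the 48 h pair (adjusted p up to 0.0773).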

How the data were processed

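PolyA RNA of A549 cells was sequenced as 12 directional libraries, 6 from CAF medium and 6 control, per the labels' protocols. The authors deposited RPKM per gene; the submitters' processing notes name TopHat2, edgeR and the hg19 build, with no versions. Neither counting rules nor strand use are given in the sources used here. The miRNA libraries were not analysed here. Groups and times come from the labels.

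RPKM values were tested on log2(RPKM + 0.5) with limma 3.58.1 in R 4.3.3 (mean-variance trend, two-sided, Benjamini-Hochberg over all genes tested, threshold 0.05), on the 12029 genes that averaged 1 RPKM or more. Fold changes on this scale understate the change of low genes. Time was a factor in the medium fits (5 residual degrees of freedom over all times, 4 for early and late). Slopes used 6 values, the mean or the difference of the conditions at each time (4 residual degrees of freedom). The fits were checked on simulated data. Since nothing separates cultures, p-values measure the spread between these libraries. In the fit over all times, any change of the CAF medium effect between times counts as spread. In the early and late fits, so does any change within the early or the late times. In the slope fits, any departure from a straight line on log2 hours counts as spread.

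Depth was recovered from gene models under 400 bases, whose RPKM steps gave whole reads within 0.1. Alternatives were other pseudocounts, filters, scalings and time terms, and leaving out each pair. All 10 members are named, with, per pathway list, up to 4 genes called over all times, early or late, and the 3 genes most like each of the 3 highest members. Marker genes, CD44 and 3 other aldehyde dehydrogenase genes called by slope were named after their values were seen. A gene that this rule names is not reported here. The members and lists were chosen with earlier results of these data known. NQO1 and AKR1B10 each stand in 2 lists.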

Additional observations from a re-analysis of the deposited data

Results flagged for a closer look

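CYP1B1, a gene of the aryl hydrocarbon receptor pathway and no member of the family described here, had a CAF medium effect that differed between the late and the early times by the limma test of that difference, 1.24 ± 0.23 on the log2 scale (adjusted p = 0.049). It was lower in CAF medium at 3 of 3 early times and at 2 of 3 late times. The call was kept without the 24 h pair and lost without each of the other pairs. It was also lost with either other pseudocount, with both looser filters, under median centring and without the mean-variance trend, with adjusted p between 0.0504 and 0.277.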

How the results depend on the processing

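Of 765 alternative values of members, 719 kept direction and side of the threshold, 6 lost a call, 5 gained one and 35 changed sign; those 35 were at most 0.163 in size with adjusted p of at least 0.117. Of 580 values of pathway genes, 412 kept their call and 168 lost it. With no filter on low values, every call of a named pathway gene for CAF medium over all times, early or late was lost. The count of members called early was 1, and 0 without the filter on low values (ALDH1A3, adjusted p = 0.142); leaving out pairs gave 0 to 1 for early and late minus early calls, 1 to 2 for change with time and 0 throughout for the other comparisons. Change with time called 1 member in CAF medium alone and 4 in control libraries alone. The difference in slope called 1 member with a pseudocount of 1 and 1 with median centring.

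Signs changed for values that the main tests did not call, as follows. Leaving out pairs gave, over all times, -0.0607 to 0.162 for ALDH1A1, -0.146 to 0.0126 for ALDH3B1 and -0.0573 to 0.0529 for ALDH7A1, the last also 0.0191 under quantile normalization. Early it gave -0.100 to 0.229 for ALDH2, -0.0283 to 0.145 for ALDH7A1 and -0.178 to 0.00619 for ALDH9A1. Late it gave -0.356 to 0.0454 for ALDH1A1, -0.0997 to 0.264 for ALDH1B1, -0.0167 to 0.255 for ALDH2 and -0.221 to 0.0199 for ALDH7A1. For late minus early it gave -0.121 to 0.258 for ALDH2, -0.45 to 0.0617 for ALDH3A1 and -0.233 to 0.0474 for ALDH3A2. For change with time it gave -0.045 to 0.0905 for ALDH1A3 and -0.0409 to 0.0775 for ALDH3A1. ALDH1A3 also had -0.0171 under median centring, -0.0193 under quantile normalization and -0.16 in control libraries alone, and in CAF medium alone ALDH1A1 had -0.023 and ALDH9A1 -0.0128. For the difference in slope it gave -0.0991 to 0.0271 for ALDH2, -0.195 to 0.0152 for ALDH3A1 and -0.0682 to 0.0135 for ALDH3A2, and ALDH2 had 0.00749 under median centring. The cause was not tested.

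Counts over all genes moved more. Over all times limma called 1226 genes, and 34, 35, 117 and 715 without the 6, 12, 24 and 48 h pairs. Without the filter or without the time term it called 0, with 4744 and 1691 genes at an unadjusted p under 0.05. Early it called 677, and 440 with a mean of at least 0.1 RPKM, 1085 without the 24 h pair, 5 and 0 without the 6 and 12 h pairs (1896 and 2195 unadjusted) and 0 with no filter (3797 unadjusted). Late it called 492, and 36 with no filter and 280 and 31 without the 24 and 48 h pairs. Late minus early calls numbered 50, and 244 without the 24 h pair. They fell to 3 without the 72 h pair and to 0 without the 3, 6, 12 or 48 h pair. They were also 0 with either looser filter and without the mean-variance trend. Change with time gave 2968, and 1431, 1201 and 798 without the 6, 48 and 72 h pairs and 1394 in CAF medium alone. Its split of 1811 up and 1157 down became 1499 and 1624 under median centring and 1440 and 1548 under quantile normalization. Differences in slope numbered 20, and 2 with a pseudocount of 0.1, 33 with 1, 3 under quantile normalization and 41 without the 24 h pair. They fell to 0 with no filter, without the mean-variance trend, without the 48 h pair and with linear hours. Without the 3, 6, 12 and 72 h pairs they were 1, 2, 4 and 4. Read numbers limit ALDH1A2, which is near the level of a few reads.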
